A study of Homo sapiens with 2 samples.

Results

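The peaks described here are those of TRF2 on the unplaced contigs of the human assembly hg38, pieces of sequence that belong to the genome but have no assigned chromosome. They were taken by name, as every row of the deposited peak list whose contig name starts with chrUn_. This rule uses no measured value, but it was chosen with earlier results of these data known. It took 1168 of 24258 peaks in all, a share of 4.81% (exact binomial 95% interval 4.55% to 5.09%). The list came from HCT116, an established colon cancer cell line, in which chromatin bound by TRF2 was collected with an antibody and sequenced. Cells were fixed with 1% formaldehyde 72 h after plating, and 100 μg of chromatin, sheared to about 300 to 400 bp, met 5 μg of antibody. It was compared with an input made without antibody, and each kind had 1 library, so no difference between samples could be tested. Intervals below cover counting error only, and peaks that lie close together are not independent. The labels name no genotype change or treatment, while the name of the peak list mentions a control siRNA, so transfection is not settled.

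TRF2, the product of TERF2, is a subunit of shelterin, the complex that coats the double-stranded repeats of telomeres and keeps chromosome ends from being treated as breaks. It is also known to occupy some telomere-like repeats inside chromosomes and some satellite repeats. Unplaced contigs are often rich in satellite DNA, the tandem repeats of centromeres and the blocks around them, which is a main reason why they could not be placed. The repeat content of each contig was not analysed here, since no genome sequence was used, and no sequence is printed.

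Peaks were dense on these contigs. The 127 unplaced contigs of hg38 add up to 4486 kb and carried 260 peaks per Mb (exact Poisson 95% interval 246 to 276). The unlocalized contigs, whose chromosome is known but not their place on it, carried 787 peaks at 113 per Mb (105 to 121). The cytogenetic centromere bands, which hold most of the list, carried 164 per Mb (161 to 166). The unplaced intervals covered 203 kb, or 4.54% of the contigs' length, against 1.63% for unlocalized contigs and 2.38% for centromere bands. The intervals of density do not overlap between the 3 classes, but they treat peaks as independent and leave out the spread between contigs. Without the 3 contigs with the most peaks, unplaced density was 188 per Mb, outside the interval above. The 13 contigs with 20 or more peaks held 893 peaks on 1772 kb, and 45 contigs had none. Among the 35 contigs of 20 kb or more the median was only 0.067 peaks per kb, so the class density is not that of a typical contig. How completely the assembly holds each kind of repeat also differs, and the difference in density was not tested.

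Each peak has the fold, p-value and q-value that the authors' peak caller gave at its summit, the point of highest signal. The fold is the immunoprecipitated read pileup plus 1 over the input background plus 1. Unplaced peaks had a median fold of 4.30 (order-statistic 95% interval 4.20 to 4.39), with the middle of the distribution between quartiles of 3.41 and 5.44 and a range of 1.78 to 32.6. Median fold was 3.99 on unlocalized contigs and 4.16 in centromere bands. A −log10 q of 5 or more, called strong from here on, was reached by 400 unplaced peaks (34.2%, exact binomial interval 31.5% to 37.0%), beside 30.0% of the whole list. On unlocalized contigs the strong share was higher, 40.8% (37.3% to 44.3%). A fold of 5 or more was reached by 368 (31.5%), beside 25.2% of the list. A q-value under 0.05 was reached by 973 (83.3%), beside 79.3%. All 3 shares lie a few percentage points above the list's. The 3 fullest contigs, KI270442v1, GL000216v2 and KI270756v1, weigh on these values. Without them the strong share was 25.9% and the median fold 4.03 (3.90 to 4.23). That median lies below those of the centromere bands and of the whole list (4.06). Its interval contains both, so their order is not resolved, and the other classes were not trimmed in the same way.

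The depth behind a typical peak was low. The pileup at the summit, recovered from the deposited fold and p, was 11 reads in the median peak (quartiles 8 and 22, range 5 to 138), and the input background there was 1.60. The median pileup of the whole list was also 11 reads. At 332 unplaced peaks (28.4%, beside 29.5% of the whole list) the background was at its genome-wide floor of 1.05. These 332 had a median of 8 reads. Low depth and the floor are thus not particular to unplaced peaks. Because pileups are whole numbers, weak peaks share exact folds: 75 unplaced peaks had 7 reads over the floor and so the same fold of 3.90. At the other extreme 110 unplaced peaks (9.42%) on 26 contigs had a background of 10 or more. The median peak there had 73 reads but a fold of only 2.91. The share of the whole list with such a background is not given here. Fold and pileup therefore order these peaks differently, and both are given where a peak is named.

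**Figure D1:**
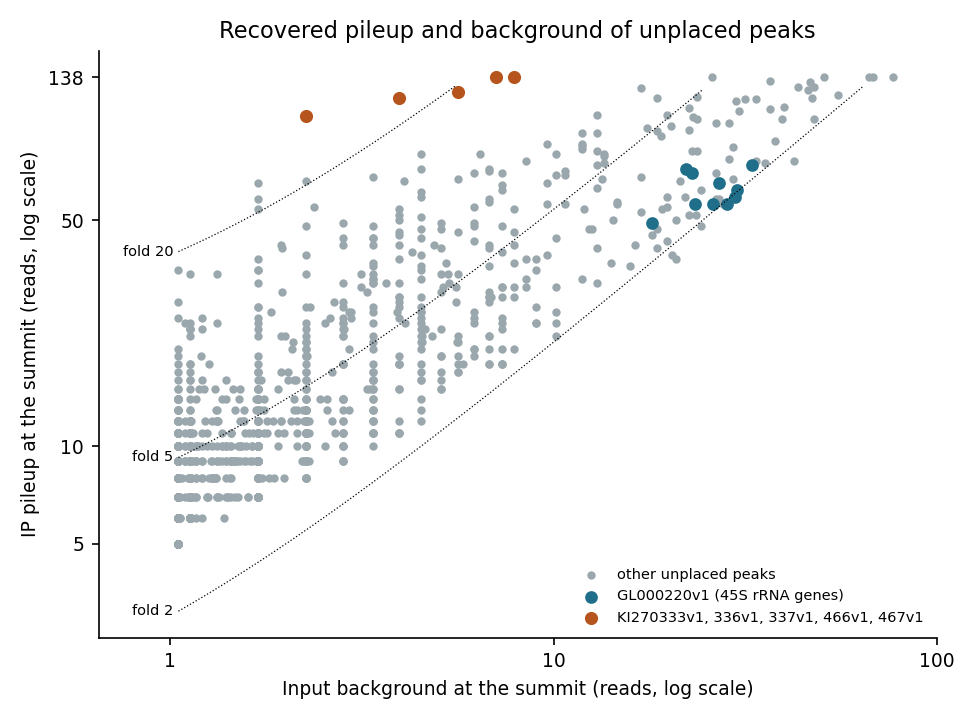
Input background (x axis) and immunoprecipitated pileup (y axis), in reads at the summit on log scales, for each of the 1168 unplaced peaks; dotted lines mark folds of 2, 5 and 20. The main peaks of 5 short contigs stand at the upper edge with 105 to 138 reads, and the 10 peaks of GL000220v1 lie near fold 2 to 3.

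Peaks were shared unevenly among contigs. Of the 127 contigs, 82 had a peak and 45 had none. Single peaks were found on 16 contigs, 34 contigs had 5 or more and 13 had 20 or more. Those 13 contigs held 893 peaks, 76.5% of the unplaced total, on 39.5% of the length. The 10 fullest held 806 (69.0%) on 35.6% of the length. Longer contigs tended to have more peaks (Spearman's rho 0.53 over 127 contigs, a description in which all points share the same libraries), but length alone did not set the count. Among the 35 contigs of 20 kb or more, density ran from 0 to 1.12 peaks per kb with a median of 0.067.

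**Figure D2:**
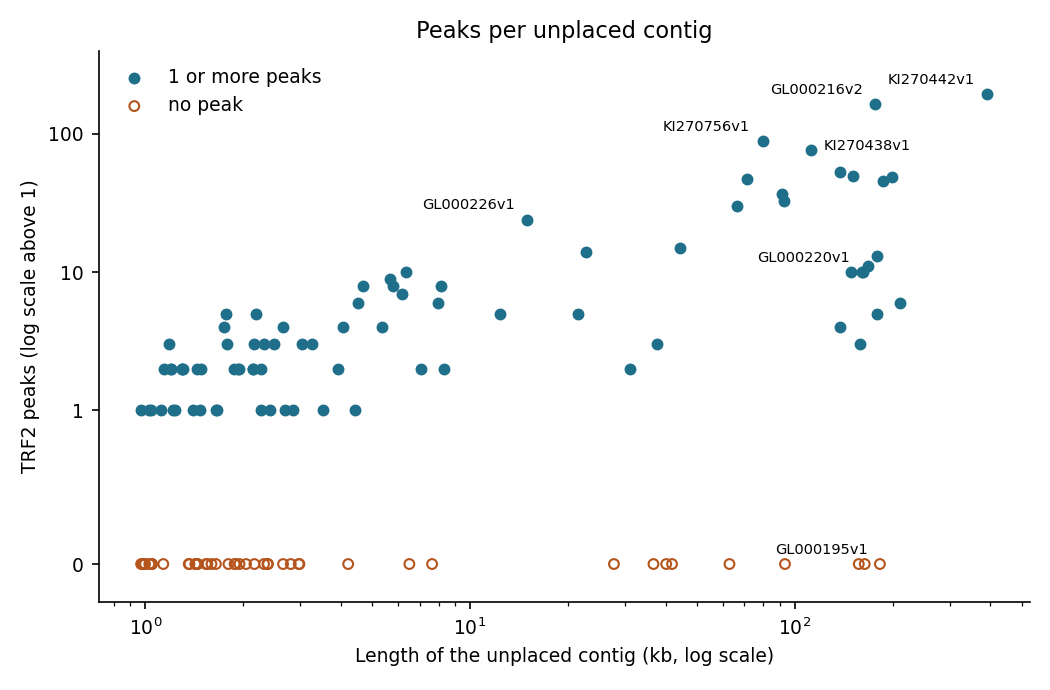
Number of TRF2 peaks (y axis, log scale above 1) against contig length in kb (x axis, log scale) for the 127 unplaced contigs; open circles have no peak. KI270442v1 and GL000216v2 lead with 194 and 164 peaks, while GL000195v1, 183 kb long, has 0.

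The fullest contig was KI270442v1, which is 392 kb long and the longest of the unplaced contigs. It carried 194 peaks (0.495 per kb) with a median fold of 4.23 and 55 strong peaks. GL000216v2 followed with 164 peaks on 177 kb, or 0.929 per kb, nearly as many on a contig well under that length. KI270756v1 had 89 peaks on 79.6 kb (1.12 per kb), the highest density among contigs of 20 kb or more. KI270438v1 had 77 on 113 kb (0.684 per kb). The remaining members of the 10 fullest were KI270519v1 with 53 peaks, KI270751v1 with 50, KI270747v1 with 49, KI270757v1 with 47, KI270742v1 with 46 and KI270538v1 with 37. Their densities lay between 0.246 per kb on KI270742v1 and 0.660 per kb on KI270757v1.

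Among contigs with at least 5 peaks, the 5 of highest density were all short. KI270465v1 had 5 peaks on 1.77 kb (2.82 per kb, exact Poisson interval 0.915 to 6.58), all 5 strong. KI270518v1 had 5 on 2.19 kb (2.29 per kb) and KI270590v1 had 8 on 4.69 kb (1.71 per kb), and none of these 13 was strong. GL000226v1, at 15008 bp, had 24 peaks (1.60 per kb, interval 1.02 to 2.38), 14 of them strong. KI270522v1 had 9 on 5.67 kb (1.59 per kb), of which 8 were strong. With so few peaks the intervals of all 5 densities overlap, so their order is not resolved. GL000226v1 stood out in another way: its peaks had a median width of 416 bp and covered 73.0% of the contig.

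Contigs also differed in the strength of their peaks. On the 13 contigs with 20 or more peaks the median fold ran from 3.90 on KI270519v1, KI270751v1, KI270538v1 and KI270746v1 to 6.02 on KI270756v1. The share of strong peaks ran from 0 of 30 on KI270746v1 (exact binomial upper limit 11.6%) to 62.8% on GL000216v2 (54.9% to 70.2%) and 61.8% on KI270756v1 (50.9% to 71.9%). GL000226v1 had 58.3% (36.6% to 77.9%) and KI270438v1 had 45.5% (34.1% to 57.2%). KI270442v1, the fullest, had 28.4% (22.1% to 35.2%), below GL000216v2 and KI270756v1 with intervals that do not overlap theirs. KI270751v1 with 4 of 50 and KI270742v1 with 3 of 46 were near the bottom. Together GL000216v2 and KI270756v1 held 158 of the 400 strong peaks (39.5%).

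GL000216v2 and KI270756v1 reached these shares at different depths. Peaks of GL000216v2 typically held 28 reads over an input of 3.79 (medians), and 8.54% of them had a background at the floor. Peaks of KI270756v1 had a median of 15 reads over 1.18, with 42.7% at the floor. The input was thus deeper at the summits of GL000216v2, while the fold, which divides by the input, was higher on KI270756v1 (quartiles 4.88 and 8.16, against 3.76 and 7.26). KI270746v1 was at the opposite end, with a median of 7 reads, 24 of 30 peaks at the floor and no fold above 4.88.

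**Figure D3:**
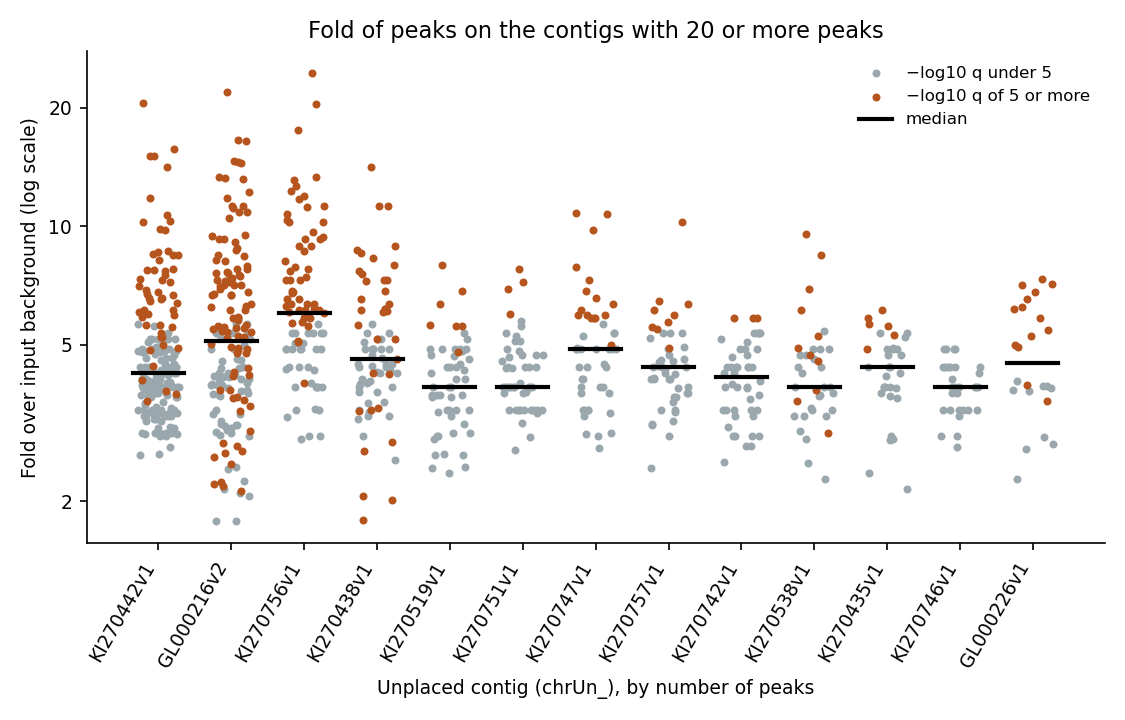
Fold over the input background (y axis, log scale) of each peak on the 13 unplaced contigs with 20 or more peaks, ordered by number of peaks; points are peaks, coloured by −log10 q, and bars are medians. KI270756v1 has the highest median, 6.02, and KI270746v1 has no strong peak.

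The spread of peaks along the contig differed from contig to contig. KI270442v1 had 154 of its 194 summits and all 55 of its strong ones in the first 5 of 10 equal parts, and 53 of the strong ones in the first 3. GL000216v2 had 140 of 164 summits in its first 5 parts, 92 of the 103 strong ones among them. A further 8 strong summits of GL000216v2 lay in its last part. KI270438v1 was weighted to the other end, with 32 of 35 strong summits in the last 5 parts and 13 of them in the last. KI270751v1 had 45 of 50 summits in its last 5 parts, 22 of them in the last part. On KI270756v1 the counts per part ran only from 6 to 13, and 29 strong summits lay in the first 5 parts and 26 in the last 5. GL000226v1 had 1 to 3 summits in each part. KI270519v1 had 22 summits in its first 5 parts and 31 in its last 5, and KI270538v1 had 16 and 21. No even spread was tested against.

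Some contigs had long stretches without a peak before, between or after their summits. On KI270747v1, 199 kb long, the first summit was at 46.7 kb, and on KI270746v1 (66.5 kb) it was at 21.9 kb. Among the 13 contigs with 20 or more peaks, the longest gaps between neighbouring summits were 35.6 kb on KI270742v1, 35.2 kb on KI270751v1 and 30.5 kb on KI270442v1. On KI270756v1 it was only 4.01 kb and on GL000226v1 1.52 kb.

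**Figure D4:**
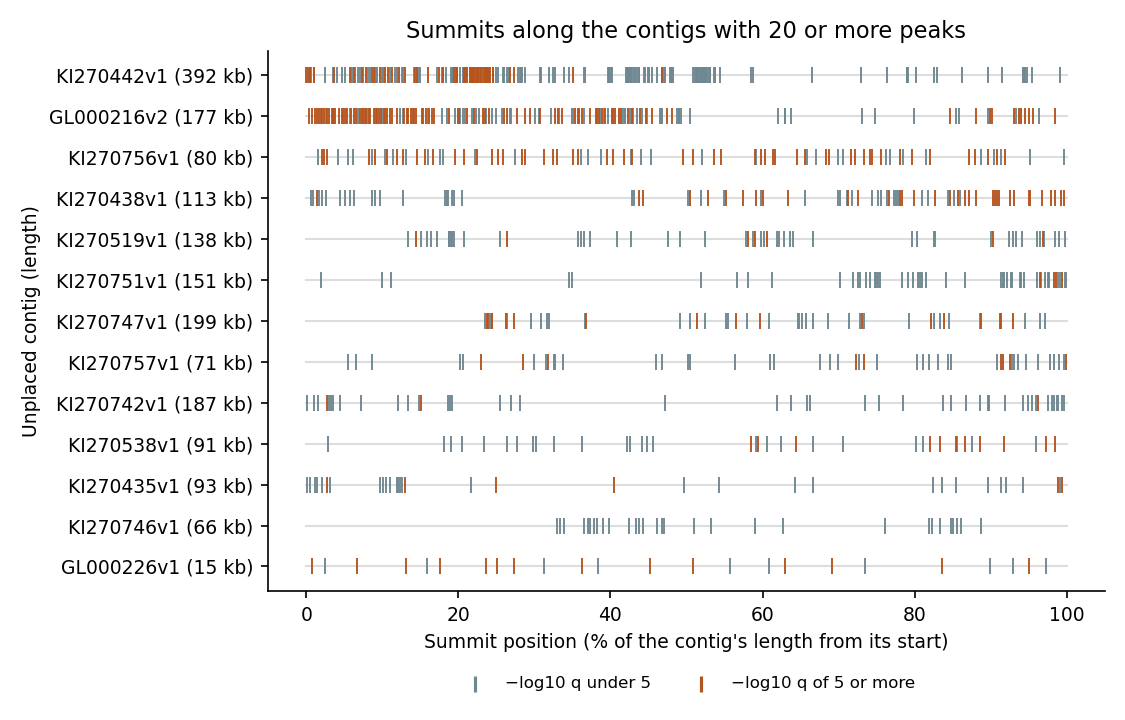
Summits along the 13 unplaced contigs with 20 or more peaks, as a percentage of each contig's length from its start (x axis); each tick is a summit, coloured by −log10 q. Strong summits fill the first parts of KI270442v1 and GL000216v2, the last parts of KI270438v1, and the whole of KI270756v1.

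The 10 unplaced peaks of highest fold were of 2 kinds, narrow peaks within long contigs and wide peaks that filled most of a short contig. The peak of highest fold was of the second kind. On KI270336v1, a contig of 1026 bp, 1 peak from 47 to 948 took up 87.9% of the length, with a fold of 32.6 and 105 reads over a background of 2.26, and ranked 6th by fold in the whole list. KI270333v1 (2699 bp) was covered over 99.6% of its length by 1 peak from 6 to 2694, with a fold of 24.2 and 119 reads over 3.95. KI270337v1 (1121 bp) had 1 peak from 4 to 1031 over 91.7% of its length, with a fold of 18.8 and 124 reads. On KI270467v1 (3920 bp) a peak from 741 to 3906 had a fold of 17.2 and 138 reads, and on KI270466v1 (1233 bp) a peak from 2 to 1182 had a fold of 15.6 and 138 reads, the last below the 10 highest folds. The input background at these 5 summits ran from 2.26 to 7.90 reads, above the median of 1.60 over all unplaced peaks. Whether they share sequence was not analysed here.

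The narrow kind made up the other 6 of the 10 peaks of highest fold. KI270756v1 gave 3 of them: from 69952 to 70060 with a fold of 24.5 and 65 reads, from 58319 to 58413 with 20.4 and 54 reads, and from 51212 to 51528 with 17.6 and 35 reads over the floor. Each had another summit within 1 kb, at 595, 613 and 828 bp. GL000216v2 gave 2, from 58494 to 58593 with a fold of 21.9 and 58 reads and from 27135 to 27264 with 16.6 and 55 reads, with other summits 188 and 281 bp away. KI270442v1 gave 1, from 14397 to 14622, with a fold of 20.6 and 66 reads. Their widths were 95 to 317 bp. Below the 10 highest folds the 2 kinds did not hold throughout. A GL000216v2 peak of 822 bp, from 25418 to 26239, had a fold of 14.6 and 42 reads.

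High folds were concentrated on few contigs. A fold of 10 or more was reached by 54 unplaced peaks on 13 contigs, led by GL000216v2 with 17, KI270756v1 with 15 and KI270442v1 with 9. They were 11.3% of the 476 such peaks in the list, whereas unplaced peaks were 4.81% of all peaks. At a fold of 15 or more there were 15 of 87 (17.2%), on 8 contigs. These shares describe 1 library pair and have no replicate check.

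Unplaced peaks had a median width of 119 bp (quartiles 81 and 183 bp), against 100 bp on unlocalized contigs and 111 bp in centromere bands. The median width of the whole list was 104 bp. The smallest width, 69 bp, was that of 136 unplaced peaks (11.6%), beside 17.2% of the whole list and 12.6% in centromere bands. At the wide end 42 peaks were 500 bp or more and 13 were 1 kb or more, of 498 and 85 such peaks in the list (8.43% and 15.3%). The 5 widest were the KI270467v1 peak of 3166 bp, a GL000220v1 peak of 2835 bp (fold 3.15, 72 reads), the KI270333v1 peak of 2689 bp, a KI270438v1 peak of 2225 bp (fold 5.16, 138 reads) and a GL000216v2 peak of 1793 bp (fold 8.78, 17 reads). They differed widely in depth. The GL000216v2 peak, from 64742 to 66534, had an input background at the floor at its summit, whereas the GL000220v1 peak had one of 22.2.

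The pileup of 138 reads, the largest in the list, was reached by 7 unplaced peaks on 3 contigs, of 38 in the list. Of these, 5 lay on KI270438v1 between 103641 and 112469, at the end of that contig, and had folds of 1.79 to 5.16 over backgrounds of 25.9 to 76.7. The others were the wide peaks of KI270466v1 and KI270467v1. No summit of the list exceeds this pileup, so the folds of these 7 peaks are not read as an order of binding.

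Summits lay close together. Over 1086 neighbouring pairs on the same contig the median distance was 754 bp (order-statistic 95% interval 702 to 809 bp), with quartiles of 414 and 1659 bp. Of these pairs 672 (61.9%) were within 1 kb, beside 44.3% in the whole list and 47.6% in centromere bands. The median was 1056 bp on unlocalized contigs (947 to 1199 bp) and 1074 bp in centromere bands (1045 to 1105 bp). Among the 13 contigs with 20 or more peaks it ran from 501 bp on KI270746v1 and 520 bp on GL000216v2 to 1898 bp on KI270747v1 and 2000 bp on KI270742v1. The smallest distance was 105 bp, on KI270757v1. Neighbours under 0.17 kb apart made up 12 pairs (1.10%), much the same share as in the whole list (1.11%) and in centromere bands (1.26%).

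The distances were then compared with the alpha satellite monomer, the repeat unit of human centromeres, which is about 0.17 kb long. Of 1876 summit pairs up to 2 kb apart, 220 (11.7%, exact binomial interval 10.3% to 13.3%) were within 10 bp of a whole multiple of the monomer length. An even spread of distances gives 12.3%, so no excess at the monomer spacing was detectable. In centromere bands the share was 12.73% (12.31% to 13.16%) of 23760 pairs. That interval lies just above the even share of 12.28%, but it treats pairs as independent. Since the measure departs so little from even there, it cannot tell whether the unplaced contigs hold this repeat. Of the 10 fullest contigs, KI270538v1 and KI270747v1 had higher shares, 8 of 34 pairs (23.5%, interval 10.7% to 41.2%) and 8 of 38 (21.1%, 9.55% to 37.3%), but both intervals contain the even share. On GL000216v2, which had the most pairs, it was 53 of 440. In steps of 100 bp from 200 to 2000 bp, each step held 4.58% to 6.18% of the pairs, and no spacing stood clear of the rest.

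**Figure D5:**
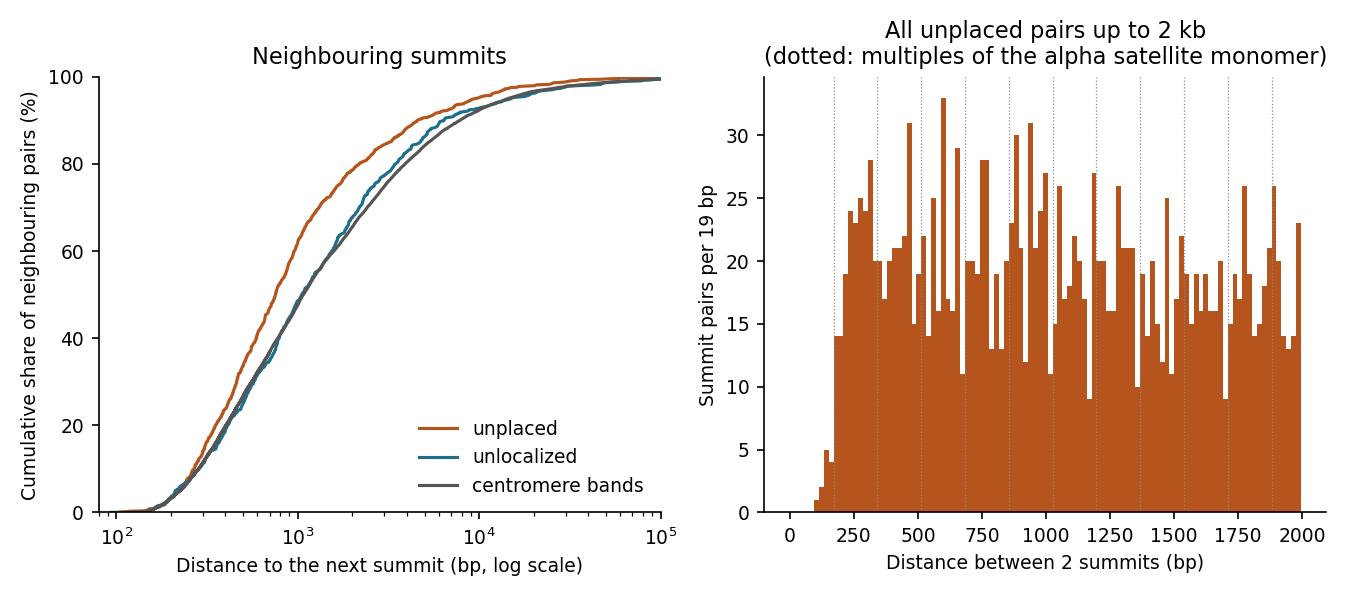
Left, cumulative share of neighbouring summit pairs (y axis, %) by distance (x axis, bp, log scale) on unplaced contigs, unlocalized contigs and in centromere bands; right, number of unplaced summit pairs per 19 bp of distance up to 2 kb, with multiples of the monomer length dotted. The unplaced curve lies to the left, with a median of 754 bp, and the pair counts show no comb at the dotted lines.

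GL000220v1, 162 kb long, is the unplaced contig of the ribosomal RNA genes. It carries a 45S unit, whose transcript is cut into the 18S, 5.8S and 28S RNAs, and the long spacer that separates such units in their tandem arrays. The RefSeq table gives RNA45SN5 a span of 105424 to 118780 without naming its contig, which was assigned here from general knowledge of the assembly. Another entry of the table, the pseudogene LOC124905315, ends at 161802, the length of GL000220v1. The contig had 10 peaks, and none of them touched the 45S unit or the annotated 18S and 5.8S copies beyond it, RNA18SP3 (153050 to 154918) and RNA5-8SP8 (155996 to 156152). Of the 10 summits, 9 lay in the spacer between RNA45SN5 and RNA18SP3, from 126622 to 138643, and the nearest of these peaks began 7740 bp past the end of the 45S unit. The remaining peak, from 102477 to 102629, ended 2795 bp before its start. With 10 peaks spread evenly over the contig, 0.826 would fall in the 45S unit, so the count of 0 there is not a depletion that these data can show.

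The ribosomal peaks were deep and of low fold. Their pileups ran from 49 to 74 reads over input backgrounds of 18.1 to 33.0, and their folds from 1.94 to 3.15 (median 2.27). The peak from 130976 to 133810 was the strongest, with a fold of 3.15 and a −log10 q of 12.7, followed by that from 128198 to 129274 (fold 2.96). Of the 10, 5 were strong by q. The number of rDNA copies in HCT116 and the share of their reads that maps to this contig were not analysed here.

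Several long contigs had few or no peaks. Of the 45 contigs without a peak, 34 were under 5 kb, but 5 were over 50 kb: GL000195v1 (183 kb), GL000213v1 (164 kb), KI270741v1 (157 kb), KI270748v1 (93.3 kb) and KI270753v1 (62.9 kb). KI270749v1 had 3 peaks on 159 kb, GL000214v1 had 4 on 138 kb, GL000224v1 had 5 on 180 kb and KI270743v1 had 6 on 211 kb. None of these 18 peaks was strong. GL000219v1 (13 peaks), KI270744v1 (11), GL000218v1 (10) and KI270750v1 (10) were in between, with 0.062 to 0.073 peaks per kb. How the authors treated reads with several possible positions is not stated in the labels.

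Short contigs carried peaks too. Of the 79 contigs under 5 kb, 45 had 103 peaks, with a median fold of 3.90, a median width of 152 bp and 43 strong peaks (41.7%). The 1065 peaks on contigs of 5 kb or more had a median fold of 4.35, a median width of 115 bp and 357 strong peaks (33.5%). Input background at the summit was higher on the short contigs (median 2.26 against 1.48). On 8 contigs peaks covered over 50% of the length: the 5 short contigs named above, KI270465v1 (69.2%), KI270383v1 (55.1%) and GL000226v1. An interval reached within 10 bp of a contig end at 6 peaks, those of KI270333v1, KI270337v1 and KI270466v1 among them, so the true width of these peaks is not known.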

How the data were processed

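The peak list compares 1 TRF2 immunoprecipitated library with 1 input library. Per the submitters' processing notes, the tools were MACS2 2.1.0, Bowtie2 2.3.2, ChIPseeker 1.36.0 and HOMER, and the builds GRCh38 and hg38. For their settings, library totals and the handling of multiply aligned or duplicate reads, the labels state nothing. The deposited fold is a ratio of pileup to local input background at the summit. The −log10 p-value beside it, like the −log10 q-value, is the authors' deposited value, and the deposited score is the whole part of 10 times −log10 p. Other columns hold intervals and summits, printed here 1-based.

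Pileup and background were recovered from fold and p (upper Poisson tail), within 0.001 on −log10 p, in 100% of peaks, and 99.98% had only 1 solution. Of 1168 unplaced peaks simulated with the same formula, 100% were recovered. This checks the calculation only, not whether the deposited values follow the formula. Contig lengths and centromere bands came from circlize 0.4.16 (R 4.3.3), and gene spans from a RefSeq table (GRCh38.p14). Its 76 genes without a chromosome name were otherwise not used. Scripts ran in Python 3.11.15 with pandas 2.3.3, scipy 1.17.1, matplotlib 3.10.9 and numpy 2.4.6.

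No test was run. Intervals are exact binomial (Clopper-Pearson), exact Poisson or order-statistic, at 95%. Named items are the 10 fullest contigs, the 5 densest with at least 5 peaks, the 10 peaks of highest fold, the 5 widest, the 3 deepest and GL000220v1. The members and this rule were chosen with earlier results of these data known. Other contigs and peaks (those with no or few peaks, high coverage or the largest pileup) were named after their values were seen. Alternatives were stricter thresholds, leaving out the fullest contigs, joining peaks, midpoints, and other tolerances, distances and periods.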

Additional observations from a re-analysis of the deposited data

How the results depend on the processing

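Limits come from depth: peaks of 5 to 8 reads lie near the threshold of the list, and 1 library pair gives no replicate error. No paired analysis was possible because each group has 1 library. Of 62 recomputed values 29 kept their value, within counting error or, for counts of peaks and contigs, within 1.5 times, and 33 moved. Stricter thresholds, left-out contigs and joined peaks change which peaks or contigs are counted. Some moves follow from the setting itself, such as the strong share among strong peaks. The tally is therefore not a measure of how stable the results are.

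With q under 0.05, density was 217 per Mb, median fold 4.58, neighbour distance 820 bp and strong share 41.1%. With −log10 q of 5 or more, 400 peaks on 50 contigs gave 89.2 per Mb, fold 6.16, width 154 bp, distance 955 bp, 78.3% in the 10 fullest contigs, 13.7% of pairs near a multiple of the alpha satellite monomer (exact binomial interval 10.8% to 17.1%, which contains the even share) and 100% strong. With fold of 5 or more, 368 peaks on 43 contigs gave 82.0 per Mb, fold 6.34, width 135 bp, distance 1233 bp, 81.8% in the 10 fullest and 81.5% strong. Without the fullest contig, density was 238 per Mb and the share in the 10 fullest 66.2%. Without the 3 fullest, 721 peaks remained, with 188 per Mb, fold 4.03, distance 868 bp, 61.9% in the 10 fullest and 25.9% strong. Over contigs with a peak, density was 324 per Mb. With peaks within 1 monomer length (about 0.17 kb) joined, 951 remained, with a median width of 126 bp. On contigs of 5 kb or more, an alternative chosen after seeing the data, 37 contigs had a peak and 75.7% of peaks lay in the 10 fullest. The share near monomer multiples was 5.60% with a tolerance of 5 bp (even share 6.43%), 11.5% up to 1 kb and 11.5% with a period 1 bp shorter.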
